A study of Mus musculus with 4 samples.

Results

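Follicular B cells of mouse spleen were described in 4 single-cell RNA libraries, 1 for each combination of genotype and injection. The members were chosen from the counts of unique molecular identifiers (UMIs, each standing for 1 captured RNA molecule) of every barcode. Barcodes were kept from 200 genes upwards when no more than 10% of their UMIs were mitochondrial. A member then had at least 3 UMIs of Cd79a, Cd79b and Ms4a1 together and at least 2 UMIs of Ighd. It had no UMI of Fcrl5, Dtx1, Myof, Cd93, Akap12, Cd3d, Cd3e or Cd3g and under 5 UMIs each of Jchain and Lyz2. The rule gave 4902 members among 20476 kept barcodes. Mice were 10 weeks old, received 100 µl into a vein, and gave their spleens 4 h later. The groups were TRIF-KO mice given TNF (9 µg of recombinant mouse protein), TRIF-KO mice given PBS, wild-type (WT) C57BL/6 mice given TNF, and WT C57BL/6 mice given PBS, and the TRIF-KO mice were on the C57BL/6 background. Erythrocytes had been lysed and dead cells depleted before loading. The labels give neither the allele of the knockout nor the number of mice behind a library. A single library stood for each group, so differences have no spread between mice to be tested against. The parentheses hold 95% intervals, which cover counting error only.

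Follicular B cells are the mature, resting B cells that recirculate through blood and lymph and gather in the follicles of spleen and lymph nodes. They carry surface IgM and IgD and the low-affinity IgE receptor CD23, and they take part in antibody responses that depend on T cells. TNF is a cytokine that signals through its receptors to NF-kB and drives acute inflammation. TRIF, encoded by Ticam1, is the adaptor of Toll-like receptors 3 and 4 that leads to interferon and NF-kB signalling. The comparisons ask how follicular B cells differed after TNF and whether that difference was the same in TRIF-KO and WT mice.

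There were 1457 in TRIF-KO TNF, 1610 in TRIF-KO PBS, 1258 in WT TNF and 577 in WT PBS members. They made up 20.6% (19.7 to 21.6) in TRIF-KO TNF, 28.5% (27.3 to 29.6) in TRIF-KO PBS, 23.9% (22.8 to 25.1) in WT TNF and 23.1% (21.4 to 24.8) in WT PBS of the kept barcodes. The share was lower in TRIF-KO TNF than in TRIF-KO PBS, and the intervals of the WT libraries overlapped. Barcodes above the mitochondrial limit made up 11.6% in TRIF-KO TNF, 10.8% in TRIF-KO PBS, 22.4% in WT TNF and 6.26% in WT PBS, and their part in these shares was not tested. The median member held 5172 UMIs in TRIF-KO TNF, 3627 in TRIF-KO PBS, 3794.5 in WT TNF and 5460 in WT PBS, and the members of a library held 3398188 to 8590693 UMIs in all. Since the rule reads raw UMIs, a deeper library can pass or fail other cells than a shallow one. Members with exactly 2 UMIs of Ighd, the fewest allowed, numbered 143 in TRIF-KO TNF, 231 in TRIF-KO PBS, 238 in WT TNF and 38 in WT PBS. Barcodes that failed only for having 1 UMI of Ighd numbered 98 in TRIF-KO TNF, 171 in TRIF-KO PBS, 215 in WT TNF and 19 in WT PBS. A single UMI of Fcrl5, Dtx1 or Myof alone kept out 432 in TRIF-KO TNF, 311 in TRIF-KO PBS, 321 in WT TNF and 151 in WT PBS.

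The label was checked with Fcer2a, which encodes CD23 and was not read by the rule. At an equal depth of 2000 UMIs per cell it was read in 33.5% of members in TRIF-KO TNF, 60.7% in TRIF-KO PBS, 25.7% in WT TNF and 55.7% in WT PBS. In barcodes with T-cell genes and no B-cell genes the shares were 0.168% of those barcodes in TRIF-KO TNF, 0.363% in TRIF-KO PBS, 0.683% in WT TNF and 0.541% in WT PBS. CD23 RNA thus marked the members in every library. It was also higher in them than in barcodes picked by the same rule but with at least 2 UMIs of Fcrl5, Dtx1 and Myof, which are genes of marginal zone B cells (log2 ratio between 1.13 and 1.49 over the 4 libraries). Cr2, which encodes complement receptors and is known to be highest on marginal zone B cells, was lower in the members than in those barcodes (between -1.48 and -1.04). The genes that the rule read are a description only. Cd79a, a signalling chain of the B-cell receptor, stood at 2013 CPM in TRIF-KO TNF, 2753 in TRIF-KO PBS, 2565 in WT TNF and 2359 in WT PBS. Ighd, the heavy chain of IgD, stood at 1107 CPM in TRIF-KO TNF, 1305 in TRIF-KO PBS, 1180.1 in WT TNF and 1299.8 in WT PBS, and Cd79b and Ms4a1 (CD20) stood between 732 and 1759 CPM, where CPM is UMIs per 1000000 UMIs of the members of a library.

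RNA of other cells was present among the members. The 8 erythroid markers, all read in each library, summed to 38801 CPM in TRIF-KO TNF, 26542 in TRIF-KO PBS, 36298 in WT TNF and 23294 in WT PBS. Members with more than 2 times the median UMIs of their library numbered 70 in TRIF-KO TNF, 61 in TRIF-KO PBS, 54 in WT TNF and 16 in WT PBS, and 1 such cell of TRIF-KO TNF held 128191 UMIs. Without these cells of high UMI count the erythroid markers summed to 3043 CPM in TRIF-KO TNF, 1431 in TRIF-KO PBS, 4467 in WT TNF and 3487 in WT PBS. The 10 neutrophil markers summed to 242 CPM in TRIF-KO TNF, 87.4 in TRIF-KO PBS, 309 in WT TNF and 387 in WT PBS, with Ltf at 0 in TRIF-KO PBS. Without the cells of high UMI count they summed to 261 CPM in TRIF-KO TNF, 17.5 in TRIF-KO PBS, 341 in WT TNF and 417 in WT PBS. The 10 T-cell markers summed to between 139 and 212 CPM, with Cd8b1 at 0 in WT PBS. Most of this was Cd2. Without the cells of high UMI count Cd2 held 820 of 1058 of these UMIs in TRIF-KO TNF and 1119 of 1273 in TRIF-KO PBS. In WT TNF it held 538 of 736 and in WT PBS 491 of 522. Whether the Cd2 RNA came from T cells or from the members themselves was not tested. The 11 monocyte or macrophage markers summed to between 12.9 and 62.5 CPM, with Fn1 at 0 in TRIF-KO TNF, Cd14 at 0 in TRIF-KO PBS and Ccr2 at 0 in WT TNF. Doublets were not removed in the values given here. Pairs of libraries shared 3 to 15 barcodes, and 2 members of TRIF-KO TNF shared a barcode with members of WT TNF.

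Ticam1 RNA (ENSMUSG00000047123) was scarce in follicular B cells of every group, with 45 UMIs in TRIF-KO TNF, 60 in TRIF-KO PBS, 26 in WT TNF and 17 in WT PBS. Its level was 5.24 CPM (3.82 to 7.01) in TRIF-KO TNF, 9.28 CPM (7.08 to 11.9) in TRIF-KO PBS, 4.86 CPM (3.17 to 7.12) in WT TNF and 5.003 CPM (2.91 to 8.01) in WT PBS. It was not lower in the libraries labelled TRIF-KO. A tag that lies outside a deleted part would still be read, so this checks nothing about the genotype labels. The receptors for TNF were low too. Tnfrsf1a, which encodes TNF receptor 1, had 9 UMIs in TRIF-KO TNF, 6 in TRIF-KO PBS, 3 in WT TNF and 2 in WT PBS. Tnfrsf1b, which encodes the other TNF receptor, stood at 6.17 CPM (4.62 to 8.07) in TRIF-KO TNF, 5.41 CPM (3.77 to 7.53) in TRIF-KO PBS, 12.3 CPM (9.54 to 15.7) in WT TNF and 5.003 CPM (2.91 to 8.01) in WT PBS, and WT TNF was the highest library. Cd14, a co-receptor for lipopolysaccharide, had 31 UMIs in TRIF-KO TNF, 0 in TRIF-KO PBS, 26 in WT TNF and 2 in WT PBS, the 0 having an interval up to 0.571 CPM, and 1 cell held 61.5% of its UMIs in WT TNF. Tlr4, the receptor for lipopolysaccharide, stood at 6.87 CPM in TRIF-KO TNF, 6.03 in TRIF-KO PBS, 4.86 in WT TNF and 9.12 in WT PBS. Ticam2, which encodes TRAM, the adaptor that joins TRIF to it, stood at 1.86 CPM in TRIF-KO TNF, 2.47 in TRIF-KO PBS, 2.62 in WT TNF and 4.12 in WT PBS. A low RNA level in a droplet library does not show that the protein was absent.

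The difference between TNF and PBS was led by Socs3 in WT follicular B cells. In both genotypes, Socs3, Fkbp5, Ptpn22, Dusp1 and Pmepa1 were higher with TNF, and Fcer2a and Cd55 were lower. Of 5928 measured genes, 82 were at least 2-fold higher in TRIF-KO TNF than in TRIF-KO PBS (1.38%) and 29 at least 2-fold lower (0.489%). In WT TNF against WT PBS 81 genes were at least 2-fold higher (1.37%) and 174 at least 2-fold lower (2.94%). The median log2 ratio over all measured genes was -0.0061 in TRIF-KO and -0.17 in WT. With a scaling that brings this median to about 0 (median of ratios), the WT counts were 122 higher and 95 lower, so the split between higher and lower genes in WT rests on the scaling. These are counts of sizes between single libraries, not tests, and the shares over all measured genes are the background for the count of each gene list.

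Socs3 (ENSMUSG00000053113) encodes a feedback inhibitor of cytokine signalling that STAT3 switches on. It stood at 73.9 CPM (68.3 to 79.9) in TRIF-KO TNF, 3.87 CPM (2.50 to 5.71) in TRIF-KO PBS, 171 CPM (160.4 to 183) in WT TNF and 7.06 CPM (4.53 to 10.5) in WT PBS. Both TNF libraries were far above both PBS libraries, and WT TNF was the highest. The log2 ratio of TNF to PBS was 4.26 (3.68 to 4.90) in TRIF-KO and 4.60 (4.02 to 5.25) in WT. With 25 and 24 UMIs in the PBS libraries, the WT ratio ranged between 4.08 and 6.01 over the processing alternatives. Stat3 itself stood at 133 CPM in TRIF-KO TNF, 64.03 in TRIF-KO PBS, 178 in WT TNF and 79.2 in WT PBS, with log2 ratios of 1.06 (0.89 to 1.22) in TRIF-KO and 1.17 (0.97 to 1.37) in WT. At 2000 UMIs per cell Socs3 was read in 11.9% (10.2 to 13.6) of members in TRIF-KO TNF, 0.441% (0.177 to 0.906) in TRIF-KO PBS, 24.1% (21.7 to 26.6) in WT TNF and 0.873% (0.284 to 2.02) in WT PBS. Without thinning the shares were 24.5% of members in TRIF-KO TNF, 1.43% in TRIF-KO PBS, 34.7% in WT TNF and 2.08% in WT PBS. Most members of the TNF libraries had no Socs3 UMI at this depth. In barcodes with T-cell genes, which had medians of 5978.5 to 9399 UMIs before thinning, Socs3 was read in 31.5% of those barcodes in TRIF-KO TNF, 7.53% in TRIF-KO PBS, 54.3% in WT TNF and 11.4% in WT PBS, a larger share than in the members of the same library. Of 28 genes of the SOCS family and of cytokine receptors 19 were measured. Socs3 and Stat3 were the 2 at least 2-fold higher in TRIF-KO, and Socs1, the inhibitor of interferon signalling, joined them in WT (log2 1.65, 1.04 to 2.30, and 0.78, 0.27 to 1.32 in TRIF-KO). These counts stand beside 1.38% of all measured genes in TRIF-KO and 1.37% in WT.

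Fkbp5 (ENSMUSG00000024222) encodes a co-chaperone of the glucocorticoid receptor and is a classical target of that receptor. It stood at 141 CPM (133 to 149) in TRIF-KO TNF, 14.4 CPM (11.6 to 17.6) in TRIF-KO PBS, 158 CPM (148 to 169) in WT TNF and 22.95 CPM (18.1 to 28.6) in WT PBS. The log2 ratio of TNF to PBS was 3.29 (2.98 to 3.61) in TRIF-KO and 2.78 (2.45 to 3.14) in WT, so both TNF libraries lay well above both PBS libraries. Fkbp5 was read in 25.2% of members in TRIF-KO TNF, 2.96% in TRIF-KO PBS, 27.2% in WT TNF and 4.36% in WT PBS at that depth. Without thinning it was read in 51.1% of members in TRIF-KO TNF, 5.28% in TRIF-KO PBS, 44.99% in WT TNF and 11.4% in WT PBS. T-cell barcodes gave 26.2% of those barcodes in TRIF-KO TNF, 3.99% in TRIF-KO PBS, 12.2% in WT TNF and 7.03% in WT PBS after thinning. Of 15 genes listed as glucocorticoid-responsive 9 were measured. In TRIF-KO 5 of the 9 were at least 2-fold higher, in WT 5 were, and none was 2-fold lower in either. This stands beside 1.38% of all measured genes in TRIF-KO and 1.37% in WT. With the median-of-ratios scaling 7 were higher in WT. Dusp1, a phosphatase that switches off MAP kinases, had log2 ratios of 2.37 (2.0003 to 2.76) in TRIF-KO and 2.77 (2.35 to 3.21) in WT, with 2.18 in WT at a mitochondrial limit of 5%. Ddit4, an inhibitor of mTOR signalling, had 1.49 (1.32 to 1.65) in TRIF-KO and 1.46 (1.24 to 1.68) in WT. Tsc22d3, the leucine-zipper protein GILZ, had 0.92 (0.85 to 0.997) in TRIF-KO and 0.97 (0.88 to 1.07) in WT. The median of the list lay above that of all measured genes by 1.33 in TRIF-KO and 1.62 in WT on the log2 scale. Per1, a clock gene, had 0.79 (0.39 to 1.21) in TRIF-KO and 1.59 (1.02 to 2.20) in WT, and Sesn1, a stress-induced inhibitor of mTOR signalling, had 1.32 (1.19 to 1.45) in TRIF-KO and 0.93 (0.77 to 1.09) in WT. Mt1, a metallothionein, is also on the list and among the 5 higher in each genotype, but 1 cell held 46.8% of its UMIs in TRIF-KO TNF. Without the cells of high UMI count Mt1 had log2 ratios of 4.80 in TRIF-KO and 3.37 in WT. These rest on 35 UMIs in TRIF-KO TNF, 1 in TRIF-KO PBS, 31 in WT TNF and 2 in WT PBS.

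The promoters of Socs3 and Fkbp5 are shown because these genes had the highest ratios in both genotypes among those whose RNA was spread over many cells and whose promoter was at hand. The letters are the RefSeq sequence of GRCm38.p6 on the minus strand, 250 bases before to 50 after the gene start, at chr11:117969317-117969616 for Socs3 and chr17:28486100-28486399 for Fkbp5. Capitals mark matches on either strand to a pattern of NF-kB (GGG and CC with 5 bases of any kind between them) or of STAT factors (TTC and GAA with 3 bases of any kind between them).
Socs3: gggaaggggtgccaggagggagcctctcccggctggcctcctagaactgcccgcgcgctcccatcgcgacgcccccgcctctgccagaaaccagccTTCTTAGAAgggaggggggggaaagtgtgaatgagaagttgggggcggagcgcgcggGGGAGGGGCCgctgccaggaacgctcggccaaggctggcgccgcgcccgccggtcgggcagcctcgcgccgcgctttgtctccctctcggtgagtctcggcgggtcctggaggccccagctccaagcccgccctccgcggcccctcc
Fkbp5: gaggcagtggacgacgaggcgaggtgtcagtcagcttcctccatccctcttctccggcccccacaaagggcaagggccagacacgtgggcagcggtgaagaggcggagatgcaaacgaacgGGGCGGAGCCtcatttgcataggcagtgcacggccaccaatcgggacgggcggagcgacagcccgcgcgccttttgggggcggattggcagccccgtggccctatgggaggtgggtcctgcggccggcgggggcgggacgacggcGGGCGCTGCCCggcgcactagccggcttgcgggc
In Socs3 the STAT pattern lay at -154 to -146 and the NF-kB pattern at -97 to -88, counted from the start. In Fkbp5 an NF-kB pattern lay at -129 to -120, and a pair of overlapping matches at 16 to 26 bases after the start. The pattern of the glucocorticoid receptor (GNACA and TGTNC with 3 bases of any kind between them) was not found in either window, which says nothing of sites elsewhere. Of 32851 promoters of this length, 50.8% hold the NF-kB pattern, 8.30% the STAT pattern and 0.475% the glucocorticoid receptor pattern. A match is a description of letters and not a binding site.

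**Figure D1:**
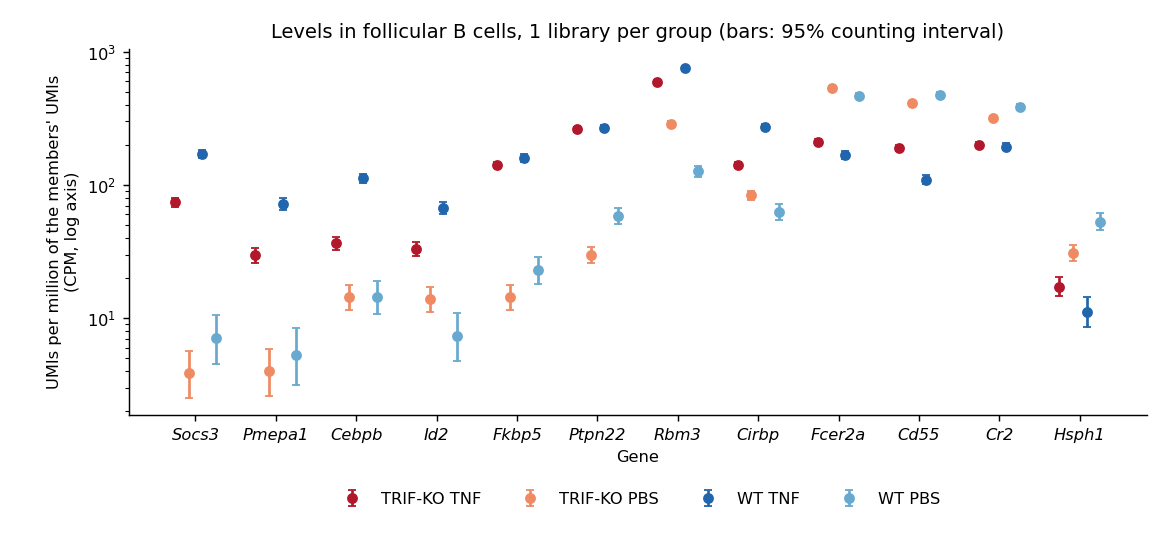
Levels of 12 genes in follicular B cells in CPM of the members' UMIs (log axis), with 1 point per library and bars for the 95% counting interval. Socs3, Fkbp5 and Ptpn22 stand high in both TNF libraries, Fcer2a, Cd55 and Cr2 stand low in both, and Rbm3 stands at 595 CPM in TRIF-KO TNF, 287 in TRIF-KO PBS, 759 in WT TNF and 127 in WT PBS.

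Ptpn22, Pmepa1 and Zfp36l2 were also higher with TNF in both genotypes. Ptpn22, a phosphatase that dampens antigen receptor signalling, stood at 262 CPM (251 to 273) in TRIF-KO TNF, 29.9 CPM (25.8 to 34.4) in TRIF-KO PBS, 268 CPM (254 to 282) in WT TNF and 58.9 CPM (50.98 to 67.6) in WT PBS. The intervals of the TNF libraries overlapped, whereas the PBS level was lower in TRIF-KO than in WT (log2 -0.98, -1.27 to -0.69). The ratio of TNF to PBS was 3.13 (2.92 to 3.35) in TRIF-KO and 2.18 (1.97 to 2.41) in WT on the log2 scale. Pmepa1, a feedback inhibitor of TGF-beta signalling, stood at 29.6 CPM in TRIF-KO TNF, 4.02 in TRIF-KO PBS, 71.8 in WT TNF and 5.30 in WT PBS, with log2 ratios of 2.88 (2.29 to 3.52) in TRIF-KO and 3.76 (3.08 to 4.53) in WT. Its WT ratio was 2.80 when barcodes were thinned to 2000 UMIs before the rule. Zfp36l2, which destabilises mRNAs, stood at 919 CPM in TRIF-KO TNF, 289 in TRIF-KO PBS, 1030.05 in WT TNF and 399.6 in WT PBS, with log2 ratios of 1.67 (1.59 to 1.74) in TRIF-KO and 1.37 (1.28 to 1.45) in WT. All 30 genes listed for B-cell receptor signalling were measured, and Ptpn22 was the 1 at least 2-fold higher in each genotype. Blk, a kinase of the Src family, was the 1 lower in TRIF-KO (log2 -1.01, -1.18 to -0.85, and -0.96 without the cells of high UMI count). Sh3bp5 (-1.03, -1.20 to -0.86), an inhibitor of the kinase BTK, and the adaptor Grap (-1.30, -1.47 to -1.14) were the 2 lower in WT, or 1 with the median-of-ratios scaling. Among all measured genes 1.38% were higher and 0.489% lower in TRIF-KO, and 1.37% were higher and 2.94% lower in WT.

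The genes of the surface proteins Fcer2a and Cd55 were at least 2-fold lower with TNF in both genotypes. Fcer2a (ENSMUSG00000005540) stood at 209 CPM (199.8 to 219) in TRIF-KO TNF, 532 CPM (514 to 549.8) in TRIF-KO PBS, 167 CPM (157 to 179) in WT TNF and 468 CPM (445 to 492) in WT PBS. Its log2 ratio was -1.34 (-1.43 to -1.26) in TRIF-KO and -1.48 (-1.60 to -1.36) in WT, and TRIF-KO minus WT was 0.14 (-0.0050 to 0.28). Cd55 (ENSMUSG00000026399) encodes decay-accelerating factor, which protects a cell from complement. It stood at 189 CPM (179.5 to 198) in TRIF-KO TNF, 411 CPM (396 to 427) in TRIF-KO PBS, 109.7 CPM (101 to 119) in WT TNF and 476 CPM (453 to 499) in WT PBS. WT TNF was the lowest library. The log2 ratio was -1.12 (-1.21 to -1.04) in TRIF-KO and -2.12 (-2.25 to -1.98) in WT. At 2000 UMIs per cell Cd55 was read in 30.7% (28.3 to 33.2) of members in TRIF-KO TNF, 53.1% (50.6 to 55.6) in TRIF-KO PBS, 18.8% (16.6 to 21.1) in WT TNF and 58.5% (54.3 to 62.5) in WT PBS. T-cell barcodes gave 2.60% of those barcodes in TRIF-KO TNF, 5.44% in TRIF-KO PBS, 2.28% in WT TNF and 9.46% in WT PBS. Without thinning the members' shares were 56.3% of members in TRIF-KO TNF, 71.2% in TRIF-KO PBS, 33.5% in WT TNF and 85.96% in WT PBS. Cr2 had log2 ratios of -0.67 (-0.76 to -0.57) in TRIF-KO and -0.99 (-1.11 to -0.88) in WT, and Fcmr, the receptor for IgM, had -0.48 (-0.54 to -0.43) in TRIF-KO and -0.36 (-0.43 to -0.28) in WT. Of 9 complement and Fc receptor genes 6 were measured, and Cd55 and Fcer2a were the 2 at least 2-fold lower in each genotype, beside 0.489% of all measured genes in TRIF-KO and 2.94% in WT. The list's median minus that of all genes was -0.57 in TRIF-KO and -0.54 in WT.

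**Figure D2:**
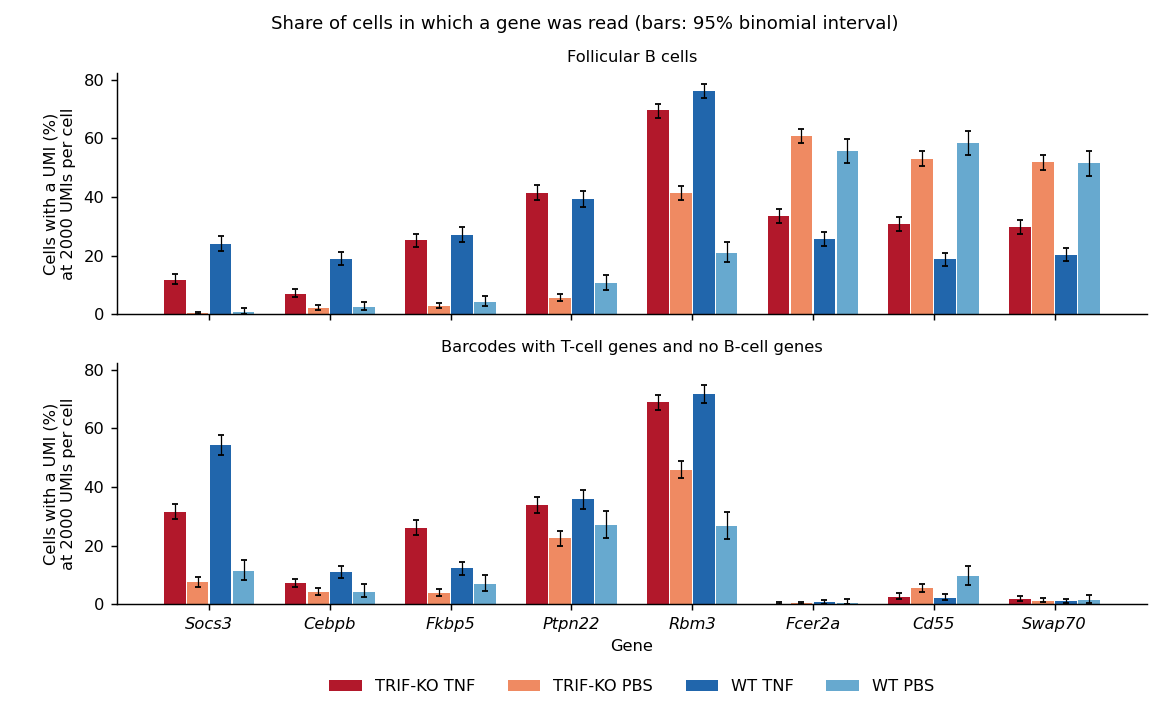
Share of cells (%) with at least 1 UMI of a gene after thinning each cell to 2000 UMIs, for follicular B cells (top) and barcodes with T-cell genes and no B-cell genes (bottom), with 95% binomial intervals. Socs3, Fkbp5 and Ptpn22 were read in more members of each TNF library than of its PBS library, and Fcer2a, Cd55 and Swap70 in fewer.

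Of 22 genes of B-cell positioning and egress 19 were measured. Cd69, which holds lymphocytes in tissue by blocking the egress receptor S1PR1, was the 1 at least 2-fold higher in TRIF-KO, and its log2 ratios were 1.12 (0.998 to 1.24) in TRIF-KO and 0.70 (0.55 to 0.85) in WT. Gpr183 and S1pr1 were the 2 lower in WT, or 1 with the median-of-ratios scaling and 1 without the cells of high UMI count. Among all measured genes 1.38% were at least 2-fold higher in TRIF-KO and 2.94% at least 2-fold lower in WT. Gpr183, an oxysterol receptor that guides B cells within the spleen, had log2 ratios of -0.99 (-1.12 to -0.86) in TRIF-KO and -1.17 (-1.34 to -0.999) in WT. S1pr1 had -0.55 (-0.68 to -0.42) in TRIF-KO and -1.02 (-1.20 to -0.85) in WT. Of 19 receptors and ligands of the TNF family 6 were measured, and all 6 had log2 ratios below 0 in both genotypes (of all measured genes 51% did in TRIF-KO and 67.6% in WT), with a median that differed from that of all genes by -0.65 in TRIF-KO and -0.43 in WT. Ltb, a lymphotoxin subunit that maintains the stroma of follicles, stood at 559 CPM in TRIF-KO TNF, 1066 in TRIF-KO PBS, 434 in WT TNF and 980.2 in WT PBS, with log2 ratios of -0.93 (-0.99 to -0.88) in TRIF-KO and -1.18 (-1.25 to -1.10) in WT. Cd40, the receptor for help from T cells, had -1.09 (-1.33 to -0.86) in TRIF-KO and -0.97 (-1.30 to -0.64) in WT, and Tnfrsf13c, the receptor for the survival factor BAFF, had -0.54 (-0.63 to -0.45) in TRIF-KO and -0.19 (-0.32 to -0.073) in WT.

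Of 22 genes of activation and costimulation 12 were measured, and 3 were at least 2-fold higher in each genotype (Cd69, Cd86 and Myc in TRIF-KO, Cd83, Cd86 and Myc in WT), beside 1.38% of all measured genes in TRIF-KO and 1.37% in WT. Cd40 was the 1 lower in TRIF-KO, beside 0.489% of all genes, and none was lower in WT. Cd86, a ligand of CD28, had log2 ratios of 1.02 (0.70 to 1.36) in TRIF-KO and 1.22 (0.88 to 1.58) in WT. Myc, a regulator of growth, had 1.29 (0.99 to 1.59) in TRIF-KO and 1.40 (1.01 to 1.82) in WT. Cd83, a surface marker of activated B cells, stood at 132 CPM in TRIF-KO TNF, 92.8 in TRIF-KO PBS, 202 in WT TNF and 71.2 in WT PBS, so that WT TNF was the highest library and the TRIF-KO ratio was under 2-fold. Of 26 immediate-early genes 19 were measured, with 4 higher and 1 lower in TRIF-KO and 5 higher and 1 lower in WT (0 lower with the median-of-ratios scaling). Of all measured genes 1.38% were higher and 0.489% lower in TRIF-KO, and 1.37% higher and 2.94% lower in WT. Fos, a subunit of AP-1, had log2 ratios of 1.66 (1.37 to 1.95) in TRIF-KO and 1.83 (1.45 to 2.24) in WT, and Fosb had 1.92 (1.59 to 2.26) in TRIF-KO and 1.26 (0.87 to 1.67) in WT. Jun, which pairs with Fos, had 1.53 (1.34 to 1.72) in TRIF-KO and 0.45 (0.26 to 0.64) in WT. It stood at 125 CPM in TRIF-KO TNF, 43.2 in TRIF-KO PBS, 135 in WT TNF and 98.9 in WT PBS, so the TNF libraries were close and TRIF-KO PBS was the lowest. Junb had 0.45 (0.34 to 0.56) in TRIF-KO and 1.45 (1.29 to 1.60) in WT, with the larger ratio in WT. The 1 lower was Egr1 in TRIF-KO and Egr3 in WT. Without the cells of high UMI count Egr1 had -1.18 in TRIF-KO and 0.64 in WT, and Egr3 had -0.70 in TRIF-KO and -1.12 in WT.

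NF-kB targets and feedback genes are classical targets of TNF signalling. Of 32 genes 28 were measured, and none was 2-fold higher or lower in TRIF-KO. In WT Bcl3 was higher and Nfkb2 and Traf1 were lower, and with the median-of-ratios scaling none was lower. Of all measured genes 1.37% were higher and 2.94% lower in WT. The list's median minus that of all measured genes was -0.16 in TRIF-KO and -0.015 in WT on the log2 scale. Bcl3, an atypical inhibitor of NF-kB, stood at 55.6 CPM in TRIF-KO TNF, 29.4 in TRIF-KO PBS, 86.7 in WT TNF and 32.1 in WT PBS. Nfkb2, which encodes the precursor p100, had log2 ratios of -0.71 (-0.87 to -0.54) in TRIF-KO and -1.16 (-1.40 to -0.93) in WT. Tnfaip3, the ubiquitin-editing inhibitor A20, stood at 11.99 CPM in TRIF-KO TNF, 21.2 in TRIF-KO PBS, 10.1 in WT TNF and 16.2 in WT PBS, and Nfkbid had -0.84 (-1.11 to -0.58) in TRIF-KO and -0.89 (-1.25 to -0.53) in WT. Of 26 genes of the Toll-like receptor and TRIF pathway 13 were measured, and Tlr7, an endosomal receptor for RNA, was the 1 higher in each genotype, with log2 ratios of 1.37 (0.96 to 1.80) in TRIF-KO and 1.41 (0.92 to 1.93) in WT, and 2.04 in WT at a mitochondrial limit of 5%. Traf3 was the 1 lower in WT (-1.01, -1.34 to -0.68), and none was lower with the median-of-ratios scaling. Among all measured genes 1.38% were higher in TRIF-KO, and 1.37% were higher and 2.94% lower in WT. Of 26 survival and death genes 14 were measured. Bmf, which promotes apoptosis, was the 1 past 2-fold, higher in WT, beside 1.37% of all measured genes. Its log2 ratios were 0.11 (-0.32 to 0.54) in TRIF-KO and 1.59 (0.98 to 2.25) in WT.

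Of 44 type I interferon-stimulated genes 29 were measured. In TRIF-KO 5 were at least 2-fold higher and in WT 4 were, with none lower, beside 1.38% higher of all measured genes in TRIF-KO and 1.37% in WT. Without the cells of high UMI count 3 were higher in TRIF-KO and 2 in WT. Zbp1, a sensor of nucleic acids, had log2 ratios of 1.07 (0.80 to 1.35) in TRIF-KO and 1.79 (1.43 to 2.17) in WT, and Ifit3 had 1.05 (0.64 to 1.47) in TRIF-KO and 1.41 (0.85 to 2.02) in WT, with 0.042 in TRIF-KO at a mitochondrial limit of 5%. Isg15, a ubiquitin-like modifier, had 1.33 (1.10 to 1.55) in TRIF-KO and 1.95 (1.59 to 2.33) in WT, against 0.49 in TRIF-KO and 0.74 in WT without the cells of high UMI count. Rsad2, the antiviral protein viperin, had 1.73 (1.46 to 2.004) in TRIF-KO and 1.29 (0.93 to 1.66) in WT, against 1.961 and 0.066 without those cells, so its WT value rested on them. Without them Rsad2 had 108 UMIs in TRIF-KO TNF, 22 in TRIF-KO PBS, 44 in WT TNF and 28 in WT PBS. Its TRIF-KO value was 2.84 when barcodes were thinned before the rule. Of 31 interferon-gamma-induced GTPase and antigen-processing genes 24 were measured, and Gbp7 and Nlrc5 were the 2 higher in TRIF-KO, beside 1.38% of all measured genes. Gbp7, a guanylate-binding protein, had 1.29 (0.91 to 1.68) in TRIF-KO and 0.47 (0.022 to 0.93) in WT, and Nlrc5, the activator of MHC class I genes, had 1.08 (0.69 to 1.48) in TRIF-KO and 0.68 (0.21 to 1.18) in WT. All 12 genes of MHC class II presentation were measured, none past 2-fold, with log2 ratios below 0 for 11 of 12 in TRIF-KO and above 0 for 9 of 12 in WT, where 51% of all genes were below 0 in TRIF-KO and 32.4% above 0 in WT. The list's median minus that of all genes was -0.17 in TRIF-KO and 0.40 in WT. H2-Ab1, a chain of the I-A molecule, stood at 3046 CPM (3009 to 3083) in TRIF-KO TNF, 3593 CPM (3547 to 3639) in TRIF-KO PBS, 3618 CPM (3567 to 3669) in WT TNF and 3115 CPM (3056 to 3175) in WT PBS, so the order of TNF and PBS differed between the genotypes.

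**Figure D3:**
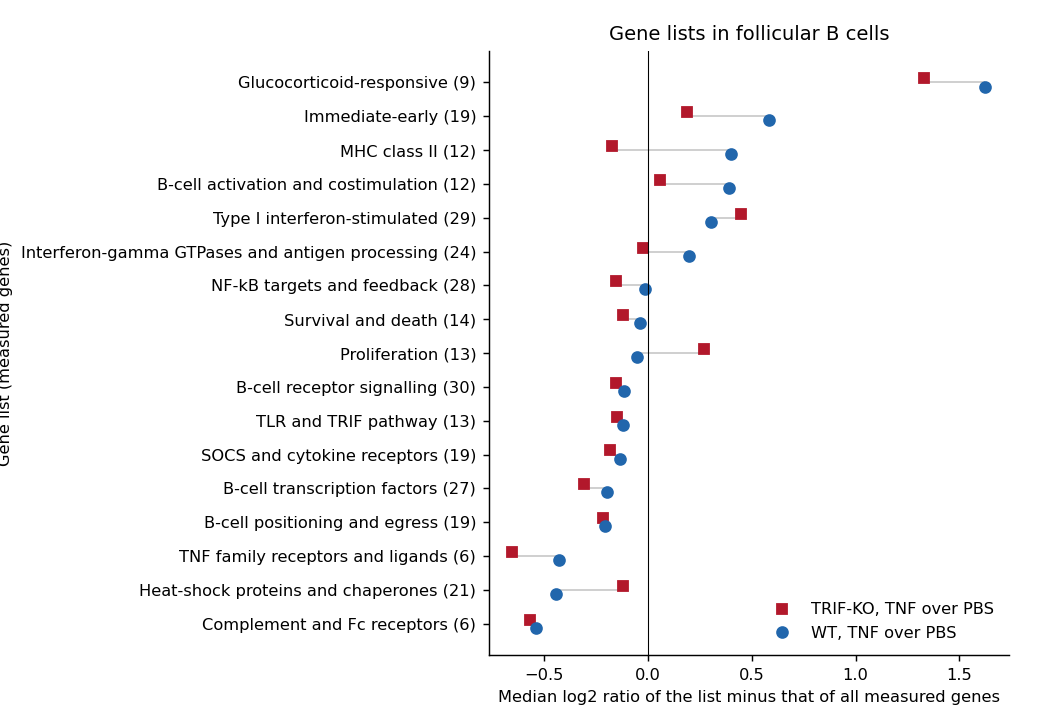
Median log2 ratio of TNF to PBS of the measured members of 17 gene lists (number measured in parentheses; the cold-inducible list, with 2 genes, is not drawn) minus the median of all measured genes, in TRIF-KO and in WT follicular B cells. Of the lists drawn, glucocorticoid-responsive genes stand highest in both genotypes, at 1.33 in TRIF-KO and 1.62 in WT, and the 2 cold-inducible genes had 0.91 in TRIF-KO and 2.52 in WT.

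Of 28 B-cell transcription factors 27 were measured, and Id2 was the 1 at least 2-fold higher in each genotype. This stands beside 1.38% of all measured genes in TRIF-KO and 1.37% in WT. Id2, an inhibitor of E proteins, stood at 33.2 CPM (29.4 to 37.3) in TRIF-KO TNF, 13.9 CPM (11.2 to 17.1) in TRIF-KO PBS, 67.5 CPM (60.7 to 74.8) in WT TNF and 7.36 CPM (4.76 to 10.9) in WT PBS. Ikzf3, the Ikaros-family factor Aiolos, had log2 ratios of -0.67 (-0.78 to -0.56) in TRIF-KO and -1.54 (-1.70 to -1.38) in WT. Klf3 (-1.12, -1.35 to -0.90) and Id3 (-1.03, -1.20 to -0.87) were the other 2 lower in WT, and 1 of the 3 was past 2-fold with the median-of-ratios scaling. Among all measured genes 2.94% were lower in WT. Bach2 and Bcl6, which keep B cells from becoming plasma cells, had -0.66 and -0.93 in TRIF-KO and -0.89 and -0.85 in WT.

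Among the other genes that ranked lowest with TNF, Swap70, a protein of the actin cytoskeleton in B cells, stood at 199 CPM in TRIF-KO TNF, 387 in TRIF-KO PBS, 128 in WT TNF and 402 in WT PBS, with log2 ratios of -0.96 (-1.05 to -0.87) in TRIF-KO and -1.65 (-1.78 to -1.52) in WT. Fchsd2, a protein of endocytosis, stood at 222 CPM in TRIF-KO TNF, 382 in TRIF-KO PBS, 144 in WT TNF and 521 in WT PBS, with WT TNF the lowest and WT PBS the highest library. Rasgrp3, an activator of Ras, stood at 72.2 CPM in TRIF-KO TNF, 132 in TRIF-KO PBS, 54.4 in WT TNF and 168 in WT PBS, again lower in both TNF libraries. Gdf11, a ligand of the TGF-beta family, had log2 ratios of -1.33 (-1.67 to -0.99) in TRIF-KO and -2.08 (-2.57 to -1.61) in WT, and Xkrx had -1.20 (-1.62 to -0.78) in TRIF-KO and -2.45 (-3.16 to -1.80) in WT. In TRIF-KO the lowest by rank beside Fcer2a, Cd55 and Gdf11 were Myadm (-2.14, -2.61 to -1.70), Il4i1 (-1.59, -1.78 to -1.41), which encodes an amino acid oxidase, Mir142hg (-1.20, -1.33 to -1.07), Kynu (-1.36, -1.70 to -1.03), an enzyme of tryptophan breakdown, and Hdac9 (-1.34, -1.76 to -0.94), a histone deacetylase. Their WT ratios had the same sign, between -2.01 for Myadm and -0.68 for Mir142hg.

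Between the TNF libraries, 10 of 5928 genes were at least 2-fold higher in TRIF-KO than in WT (0.169%) and 21 at least 2-fold lower (0.354%). This comparison shares the WT TNF library with that of TNF against PBS in WT. Socs3 had a log2 ratio of -1.21 (-1.36 to -1.07) in TRIF-KO TNF over WT TNF, and between -1.33 and -1.15 over the alternatives. Cebpb, a leucine-zipper factor of inflammatory gene expression, stood at 36.7 CPM (32.7 to 40.9) in TRIF-KO TNF, 14.4 CPM (11.6 to 17.6) in TRIF-KO PBS, 112 CPM (103 to 121) in WT TNF and 14.4 CPM (10.7 to 19.1) in WT PBS. TRIF-KO TNF lay between WT TNF and the PBS libraries, with a log2 ratio of -1.61 (-1.81 to -1.41) over WT TNF. B3gnt7, an enzyme that extends sugar chains, stood at 6.29 CPM in TRIF-KO TNF, 1.86 in TRIF-KO PBS, 32.1 in WT TNF and 2.35 in WT PBS, with a log2 ratio of -2.35 (-2.82 to -1.91) between the TNF libraries, and WT TNF was the 1 library in which it reached 20 CPM. Pmepa1 (-1.28, -1.51 to -1.05), Arrdc3 (-1.55, -1.85 to -1.26), Dusp5 (-1.80, -2.30 to -1.32), a phosphatase of ERK, and Id2 (-1.02, -1.25 to -0.80) were lower too, but Id2 had -0.26 with a mitochondrial limit of 5%. Dusp5 too reached 20 CPM in WT TNF alone, and it had -2.54 without the cells of high UMI count.

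Of the genes higher in TRIF-KO TNF than in WT TNF, Fdps, an enzyme of isoprenoid synthesis, had a log2 ratio of 1.39 (0.93 to 1.87) and Ncbp2, a cap-binding protein, had 1.004 (0.61 to 1.42), or 0.40 when barcodes were thinned before the rule. Car1, S100a4, Fabp5, Mt1, Ifitm2 and Ccl5 ranked among the highest as well, but 1 cell of TRIF-KO TNF held 89.4%, 56.7%, 59.1%, 46.8%, 19.6% and 34.5% of their UMIs. Car1 is an erythroid gene and Ccl5 a chemokine of T and NK cells. Without the cells of high UMI count 5 genes were at least 2-fold higher in place of 10. Ccl5 then still had 1.44 between the TNF libraries, from 194 UMIs in TRIF-KO TNF and 46 in WT TNF. In WT TNF 1 cell held 46.7% of the Ccl5 UMIs of all members. Leaving those cells out, Ifitm2 had 0.15 between the TNF libraries, from 64 UMIs in TRIF-KO TNF and 37 in WT TNF. It also ranked among the genes lower in TRIF-KO PBS than in WT PBS, with -2.93 without those cells (9 and 37 UMIs). Its log2 ratio of TNF to PBS was then 2.50 in TRIF-KO and -0.59 in WT, a difference of 3.01. Ifitm2 was then lowest in TRIF-KO PBS (1.55 CPM) and highest in WT PBS (11.8 CPM). The neutrophil markers in the same cells were lowest and highest in the same libraries. They summed to 261 CPM in TRIF-KO TNF, 17.5 in TRIF-KO PBS, 341 in WT TNF and 417 in WT PBS. The part of neutrophil RNA in the Ifitm2 values was not tested.

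**Figure D4:**
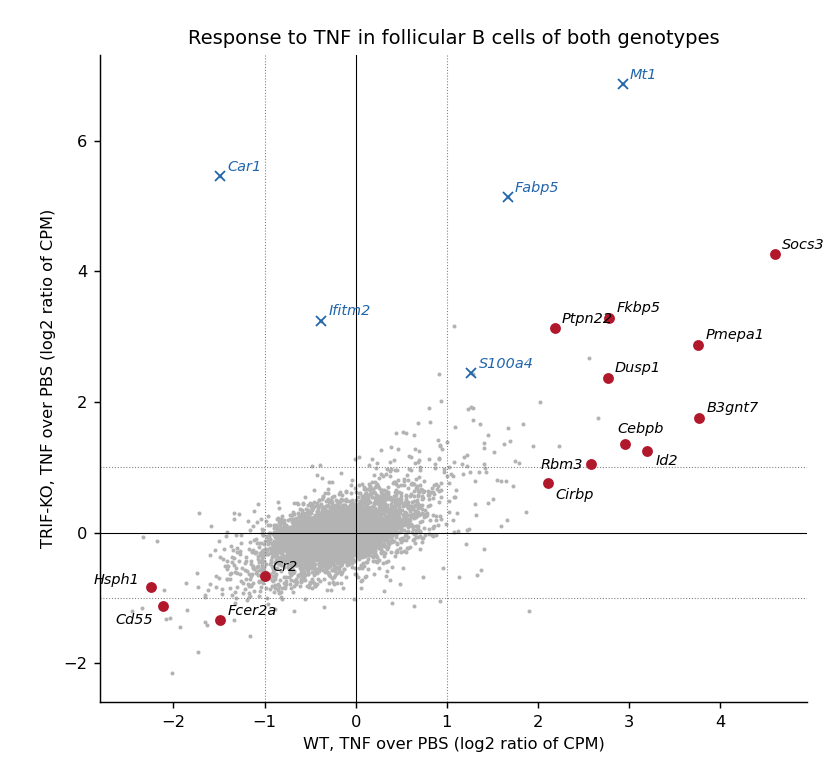
Log2 ratio of TNF to PBS for each of 5928 measured genes in WT (x axis) and in TRIF-KO (y axis) follicular B cells, with dotted lines at 2-fold. Red points are some of the named genes. Blue crosses are Car1, Mt1, Fabp5, Ifitm2 and S100a4, with between 19.6% and 89.4% of their TRIF-KO TNF UMIs in 1 cell. Other genes in that range, such as Ccl5 (34.5%), carry no cross.

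Between the PBS libraries, 9 genes were at least 2-fold higher in TRIF-KO than in WT follicular B cells (0.152%) and 31 at least 2-fold lower (0.523%). Rbm3 (ENSMUSG00000031167), an RNA-binding protein induced by cold, led the higher ones with a log2 ratio of 1.18 (1.03 to 1.33). Lrrc58 had 1.18 (0.85 to 1.53), the immediate-early factor Egr1 had 1.12 (0.59 to 1.68) and Pcp4 had 1.15 (0.59 to 1.74). S100a4, a calcium-binding protein of leukocytes, ranked next, at 26.9 CPM in TRIF-KO TNF, 4.95 in TRIF-KO PBS, 3.55 in WT TNF and 1.47 in WT PBS, with 21.9% of its TRIF-KO PBS UMIs in 1 cell. Among the lower ones, Hist1h1e, a linker histone, stood at 92.4 CPM in TRIF-KO TNF, 75.8 in TRIF-KO PBS, 182 in WT TNF and 218 in WT PBS, with a log2 ratio of -1.52 (-1.69 to -1.36) between the PBS libraries and -0.98 (-1.12 to -0.84) between the TNF libraries. Hist1h1b had -1.39 (-1.65 to -1.13) and -1.30 (-1.50 to -1.11) in the same comparisons, Hist1h4h -1.61 (-2.01 to -1.20) and -0.82 (-1.23 to -0.42), and Hist1h4d -1.27 (-1.50 to -1.05) and -1.08 (-1.28 to -0.88). Histone genes have near-identical copies between which reads may be split, and 1 cell of WT PBS held 44.2% of the Hist1h1b UMIs. Mki67, a marker of dividing cells, stood at 26.3 CPM in TRIF-KO TNF, 13.5 in TRIF-KO PBS, 47.3 in WT TNF and 24.1 in WT PBS, and the part of dividing cells was not tested. The log2 ratio of Mki67 between the PBS libraries was -0.84 (-1.29 to -0.39). Most Mki67 RNA lay in the cells of high UMI count. Without them it stood at 2.86 CPM in TRIF-KO TNF, 1.03 in TRIF-KO PBS, 2.76 in WT TNF and 3.50 in WT PBS. The ratio between the PBS libraries was then -1.76, from only 6 UMIs in TRIF-KO PBS and 11 in WT PBS. Pde3b, a phosphodiesterase, was lower too (-1.38, -1.78 to -0.99, and -0.73 when barcodes were thinned before the rule).

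The responses were compared by subtracting the WT log2 ratio of TNF to PBS from the TRIF-KO one. Of 5928 genes 81 had a difference of at least 1 (1.37%) and 29 of at most -1 (0.489%), around a median of 0.16. With the median-of-ratios scaling these counts were 40 and 48. Rbm3 had log2 ratios of 1.05 (0.98 to 1.13) in TRIF-KO and 2.58 (2.44 to 2.73) in WT, a difference of -1.53 (-1.69 to -1.37), and between -1.69 and -1.44 over the alternatives. It stood at 595 CPM (579 to 612) in TRIF-KO TNF, 287 CPM (274 to 300.1) in TRIF-KO PBS, 759 CPM (736 to 783) in WT TNF and 127 CPM (115 to 139) in WT PBS, so the PBS libraries were further apart than the TNF libraries. Cirbp, the other RNA-binding protein induced by cold, stood at 141 CPM in TRIF-KO TNF, 83.4 in TRIF-KO PBS, 271 in WT TNF and 62.7 in WT PBS, a difference of -1.35 (-1.60 to -1.10). Of 25 heat-shock proteins and chaperones 21 were measured, and Hsph1 was the 1 with a difference of at least 1, beside 1.37% of all genes. The difference was above 0 for 20 of the 21, against 67.3% of all measured genes, and the list's median minus that of all genes was 0.34. None was 2-fold lower with TNF in TRIF-KO, and 6 were in WT (Hspa8, Hsph1, Dnaja1, Chordc1, Stip1 and St13), or 4 with the median-of-ratios scaling. Of all measured genes 0.489% were 2-fold lower in TRIF-KO and 2.94% in WT. Hsph1, a co-chaperone of HSP70, stood at 17.2 CPM in TRIF-KO TNF, 30.8 in TRIF-KO PBS, 11.2 in WT TNF and 52.97 in WT PBS, a difference of 1.40 (0.88 to 1.92). Hspa8, the constitutive HSP70, stood at 559 CPM in TRIF-KO TNF, 753 in TRIF-KO PBS, 445 in WT TNF and 984 in WT PBS. Between the PBS libraries 20 of the 21 genes had a log2 ratio of TRIF-KO to WT below 0, against 64.3% of all measured genes, with a median that differed from that of all genes by -0.23. The same WT PBS library enters this comparison, the WT ratios and the differences of responses, so these observations are not independent.

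Id2 had a difference of -1.92 (-2.60 to -1.25), and -0.33 with a mitochondrial limit of 5%. Cebpb had -1.60 (-2.13 to -1.06), and -0.38 when barcodes were thinned to 2000 UMIs before the rule. Plaur, the urokinase receptor, stood at 48.8 CPM in TRIF-KO TNF, 42.8 in TRIF-KO PBS, 113 in WT TNF and 35.6 in WT PBS, a difference of -1.47 (-1.83 to -1.11). Arrdc3 had -1.66 (-2.17 to -1.14) and Pcp4 -1.74 (-2.44 to -1.05), or -2.64 with a mitochondrial limit of 5%. Lrrc58 was higher with TNF in WT (log2 1.33, 0.99 to 1.68) and lower in TRIF-KO (-0.64, -0.86 to -0.43), the most negative difference by rank, at -1.97 (-2.36 to -1.57). On the positive side stood Uchl4 (2.25, 1.40 to 3.10), a deubiquitinase, Mllt3 (1.68, 1.11 to 2.24), a reader of histone acylation, BE692007 (1.19, 1.06 to 1.32) and Zfp874b (1.63, 0.99 to 2.27), each lower with TNF in WT and with log2 ratios between -0.25 and 0.30 in TRIF-KO. With 1 library per group the interaction could not be tested, and genotype cannot be told apart from anything else that differed between the libraries.

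Barcodes picked by the marginal zone rule, 533 in TRIF-KO TNF, 241 in TRIF-KO PBS, 316 in WT TNF and 199 in WT PBS, showed the main differences as well. Socs3 had log2 ratios of TNF to PBS of 2.69 (1.89 to 3.62) in TRIF-KO and 3.35 (2.72 to 4.05) in WT there, and Cd55 had -1.19 (-1.43 to -0.95) and -1.75 (-2.05 to -1.44). Cr2 stood at 488 CPM in TRIF-KO TNF, 799.96 in TRIF-KO PBS, 399 in WT TNF and 1075 in WT PBS in these barcodes, with -0.71 (-0.81 to -0.62) in TRIF-KO and -1.43 (-1.54 to -1.32) in WT, against -0.67 (-0.76 to -0.57) in TRIF-KO and -0.99 (-1.11 to -0.88) in WT in follicular B cells. Ptpn22 had 1.99 (1.75 to 2.24) and 1.28 (1.08 to 1.48) there, with lower ratios than in follicular B cells. In barcodes without B-cell genes Cebpb had 1.59 (1.51 to 1.68) in TRIF-KO and -0.11 (-0.19 to -0.029) in WT, and Dusp1 had 1.60 (1.49 to 1.70) in TRIF-KO and -0.048 (-0.15 to 0.052) in WT, against 2.37 (2.0003 to 2.76) in TRIF-KO and 2.77 (2.35 to 3.21) in WT in follicular B cells. Rbm3 had 0.41 (0.35 to 0.46) in TRIF-KO and 1.74 (1.66 to 1.82) in WT in those barcodes, with the larger ratio in WT as in follicular B cells. Barcodes without B-cell genes are a mixture of cells. In CPM of their own UMIs, the 10 neutrophil markers summed there to 30134 in TRIF-KO TNF, 4217 in TRIF-KO PBS, 7465 in WT TNF and 15147 in WT PBS. The part of this make-up in the ratios of those barcodes was not tested. The differences between these kinds of cells were not tested either.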

How the data were processed

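UMI counts per gene and barcode were deposited by the authors for each library, and per the file headers they were made with Cell Ranger 6.0.1. The submitters' processing notes name Cell Ranger 3.0, Seurat 4.1.1 and the genome build mm10. The sources used here do not give the annotation release, the strand setting or how barcodes were selected before deposit. The deposited libraries held 2683 to 8060 barcodes and 23614028 to 67276803 UMIs.

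From these counts, members were picked by the rule given in the report, their UMIs summed per library and divided by the sum to give CPM. Levels have exact Poisson 95% intervals, ratios exact conditional ones, shares Clopper-Pearson ones, and differences of log2 ratios normal ones with 0.5 added to each count. All intervals and limits cover counting error only. A measured gene had 100 or more UMIs in all and 20 or more CPM in 1 library or more, and not under 5% of the CPM of barcodes without B-cell genes in every library. These filters left 5928 of 32285 genes. With 1 library per group nothing was tested, and called means at least 2-fold. Shares of cells with a UMI were compared after thinning to 2000 UMIs, which left out 4 to 21 members per library. Doublets were not removed. As an alternative, barcodes with the highest Scrublet scores were left out (0.8% per 1000 barcodes, expected rate 0.06). The computation was tested on simulated data.

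The members and gene lists were chosen with earlier results of these data known. Named genes were, per comparison, the 8 highest and 8 lowest by the interval bound nearest to no difference among genes past 2-fold (leaving out rule genes, predicted genes and those of haemoglobin, T-cell receptors, immunoglobulins, ribosomes, mitochondria and the sex chromosomes), up to 6 of each list with the largest ratio in each genotype, and 13 further genes of the pathway, the rule and the surface receptors. A gene that this rule names is not reported here. Alternatives changed the scaling, the weighting of cells, the filter on levels, the depth of the rule, the Ighd minimum, the mitochondrial limit, doublets and the cells included. RefSeq promoters of GRCm38.p6 were matched by symbol, for 3 of the 4 genes looked up (Socs3, Pmepa1, Fkbp5 and Dusp1). Versions were Python 3.11.15, numpy 2.4.6, scipy 1.17.1, pandas 2.3.3, scanpy 1.11.5 and matplotlib 3.10.9.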

Additional observations from a re-analysis of the deposited data

Results flagged for a closer look

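Car1, which encodes a carbonic anhydrase of red blood cells, had a log2 ratio of TNF to PBS of 5.45 in TRIF-KO and -1.49 in WT follicular B cells, a difference of 6.87 with opposite signs in the genotypes, and this difference was not tested. In TRIF-KO TNF 572 of its 640 UMIs lay in 1 cell, and 1 cell held 60.9% of its UMIs in WT TNF and 73.2% in WT PBS. Without the members of high UMI count the difference was 0.40. That value rests on 3 UMIs in TRIF-KO TNF, 1 in TRIF-KO PBS, 9 in WT TNF and 4 in WT PBS.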

How the results depend on the processing

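No paired analysis was possible because each group is 1 library. The share of members, 20.6% in TRIF-KO TNF, 28.5% in TRIF-KO PBS, 23.9% in WT TNF and 23.1% in WT PBS, became 11.5%, 22.03%, 16.9% and 17.1% with a mitochondrial limit of 5%. Thinning before the rule gave 19.3% in TRIF-KO TNF, 27.1% in TRIF-KO PBS and 21.2% in WT TNF, an Ighd minimum of 3 gave 18.6%, 24.4% and 19.4% in these, and leaving out members above 2 times the median UMIs gave 19.6% in TRIF-KO TNF. Counts of genes at least 2-fold different are given here as higher and lower, each where it moved by over 1.5 times. Median-of-ratios scaling gave 122 and 95 in WT TNF over PBS, 14 higher in TRIF-KO PBS over WT PBS, and 40 and 48 for the difference of responses. CPM computed after taking out immunoglobulin, haemoglobin, ribosomal and mitochondrial genes gave 115 lower in WT. Weighting each cell equally gave 6 higher in TRIF-KO TNF over WT TNF. With no filter on CPM the counts were 170 and 81 in TRIF-KO TNF over PBS, 186 and 359 in WT TNF over PBS, 65 and 63 in TRIF-KO TNF over WT TNF, 57 and 125 in TRIF-KO PBS over WT PBS, and 300 and 115 for the difference. With a minimum of 50 CPM they were 47 and 13, 51 and 75, 2 and 12, 5 and 7, and 17 and 16 in the same order. Thinning before the rule gave 49 lower in TRIF-KO, 128 higher in WT, 24 higher in TRIF-KO TNF over WT TNF, 34 and 64 in TRIF-KO PBS over WT PBS, and 203 and 86 for the difference. A mitochondrial limit of 5% gave 148 and 77 in TRIF-KO, 134 and 337 in WT, 48 and 42 in TRIF-KO TNF over WT TNF, 15 and 81 in TRIF-KO PBS over WT PBS, and 254 and 62 for the difference. Without members above 2 times the median UMIs, an alternative added after seeing the data, 5 genes were higher in TRIF-KO TNF over WT TNF. The cause of these moves was not tested, except that fewer or more genes pass another filter by construction. Signs turned for Car1 (WT 0.69 thinned and 0.58 without members of high UMI count, TRIF-KO TNF over WT TNF -2.89 and -2.22, difference -0.32 thinned), S100a4 (TRIF-KO -1.52 and -0.92, TRIF-KO TNF over WT TNF -0.99 and -0.55, difference -1.81 in both settings), Mt1 (TRIF-KO TNF over WT TNF -0.046 and -0.46), Fabp5 (TRIF-KO TNF over WT TNF -0.071 without those members), Car2 (TRIF-KO -0.37 and difference -0.12 without them) and Ccl5 (WT 1.91 and difference -3.22 without the highest doublet scores). Of 191 named values past 2-fold, between 147 (thinned) and 187 (leaving out the top cell for the gene) were past 2-fold in the same direction under an alternative. The alternative that leaves out members with 5 or more UMIs of neutrophil, erythroid and macrophage markers was not run, since it leaves 8 members in TRIF-KO TNF, 620 in TRIF-KO PBS, 9 in WT TNF and 0 in WT PBS. Depth limits genes such as Ticam1, Tnfrsf1a and Cd14, with under 100 UMIs per library.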
